A study of Mus musculus with 8 samples.

Results

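R-spondins are secreted proteins that strengthen Wnt signaling, and this account covers 8 genes that make up their route to the cell: the ligand genes Rspo1, Rspo2 and Rspo3, the receptor genes Lgr4, Lgr5 and Lgr6, and the ubiquitin ligase genes Znrf3 and Rnf43. The genes were chosen by name, and all 8 were found among the 16397 genes of the count table. All 8 passed the count criterion. The remaining family member, Rspo4, was not analysed here. Hippocampi were collected at embryonic day 15.5 (E15.5) from C57Bl/6J mice. In the IUGR (intrauterine growth restriction) group, 4 samples came from offspring of dams that carried, from E12.5, an osmotic pump delivering U-46619, an analog of thromboxane A2 that raises maternal blood pressure. In the sham control group, 4 samples came from offspring of dams with a pump that held vehicle alone. Ribosomal RNA was removed from total RNA, and 1 stranded library per sample was sequenced as single reads. Neither sex nor dam is given by the sample labels, so p-values measure only the spread between these samples.

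Wnt proteins bind Frizzled receptors and their Lrp coreceptors, which stabilizes beta-catenin and switches on target genes. Znrf3 and Rnf43 are membrane ubiquitin ligases that remove Frizzled from the cell surface, and both are themselves switched on by Wnt signaling in several tissues. An R-spondin bound to an Lgr receptor or to heparan sulfate proteoglycans draws the ligase away from the membrane, so that Frizzled stays. In the embryonic forebrain, the cortical hem, a source of Wnt and Bmp proteins at the margin of the hippocampal primordium, directs hippocampal growth, and the choroid plexus forms next to it.

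All 3 R-spondin genes were lower in IUGR hippocampi than in sham control hippocampi. Of the 13707 protein-coding genes tested, 1.36% were called lower in IUGR and 0.102% were called higher, where a call needed both a change of at least 1 on the log2 scale and an adjusted p no higher than 0.05 (edgeR's quasi-likelihood test, adjusted by Benjamini-Hochberg). Among the 8 genes, 3 were called lower and 0 were called higher. For 5 of the 8 (Rspo1, Rspo2, Rspo3, Lgr5 and Rnf43), every IUGR sample was below every sham sample in CPM, the count scaled to a common library size, which held for 5.06% of all tested genes. At an unadjusted p under 0.05, the same test placed 5 of the 8 genes lower and 0 higher, as against 6.62% lower and 4.46% higher among all tested genes. Lgr5 was among the 5 genes in each case, but its IUGR samples held only 3 to 13 counts. Its mean count of 11.9 over all samples was raised by the sham samples, which held 10 to 20 counts. Lgr5 therefore adds little to either number.

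Total counts on genes ran from 12919546 to 16672463 in the IUGR group and from 11212632 to 15405748 in the sham group. The sample names carry the prefix T1 in the IUGR group and S1 or S3 in the sham group, and the meaning of these prefixes is not stated. Genes of the hippocampal primordium were detected in every sample, with Zbtb20 at 293 CPM or more and Emx2 at 14.6 CPM or more. The RNA of the X-inactivation gene Xist was between 948 and 1593 CPM in T1-3, T1-4, T1-5 and S1-6, and between 2.12 and 5.85 CPM in the other samples. The IUGR samples differed among themselves in markers of neighboring tissue. T1-1 and T1-4 were lowest in choroid plexus markers, and T1-3 was highest in markers of meninges and mesenchyme. These markers are given with the results they touch.

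The R-spondin family is held together by cysteine-rich repeats. A 60-base stretch of coding sequence from each ligand gene is shown because it is the best conserved window of the 3 genes and yet differs enough to separate their reads. Capitals mark the 37 bases that are identical in all 3 genes. The stretches lie on GRCm38 at chr4:125007162-125007221 (plus strand, exon 4 of 6), chr15:43078168-43078227 (minus strand, exon 4 of 6) and chr10:29504656-29504715 (minus strand, exon 3 of 5).
Rspo1: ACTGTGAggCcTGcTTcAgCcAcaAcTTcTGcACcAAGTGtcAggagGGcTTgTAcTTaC
Rspo2: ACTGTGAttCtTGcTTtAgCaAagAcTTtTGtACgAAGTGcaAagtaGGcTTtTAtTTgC
Rspo3: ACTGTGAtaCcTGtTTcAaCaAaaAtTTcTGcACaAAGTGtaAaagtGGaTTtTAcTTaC

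Over their whole coding sequences, aligned bases were identical at 52.3% between Rspo1 and Rspo2, 54.4% between Rspo1 and Rspo3 and 56.2% between Rspo2 and Rspo3. No run of 30 bases was shared between any members of the 8. Of the 802 runs of 30 bases in the Rspo3 coding sequence, 68 also occur, on the opposite strand, in the antisense gene Gm48159, which has no row in the table. The antisense gene Gm12930 likewise overlaps an exon of Rspo1. The strand setting of the counting is not given in the sources used here, so reads of Rspo1 and Rspo3 could include reads of these antisense genes.

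Rspo2 showed the largest decrease among the 8 genes. It lies on chromosome 15 from 43020794 to 43170826 (minus strand), and its product potentiates Wnt signaling through all Lgr receptors of this group. In T1-1, T1-3, T1-4 and T1-5, Rspo2 was at 1.20, 6.70, 5.48 and 8.82 CPM, respectively. In S1-4, S1-6, S3-1 and S3-4, it was at 28.9, 40.4, 27.6 and 67.2 CPM. The highest IUGR sample was thus well below the lowest sham sample. The IUGR mean of 5.55 ± 3.21 CPM lay below the sham mean of 41.0 ± 18.4 CPM (SD, n = 4 each), with a log2 fold change of -2.88 (SE 0.50, 95% interval -3.99 to -1.78, adjusted p = 0.0239 by edgeR), or 7.38-fold lower.

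The call for Rspo2 was lost when T1-4 (adjusted p = 0.0536), S1-4 (0.0730) or S3-4 (0.0685) was left out of the edgeR fit. Its log2 fold change stayed between -3.19 and -2.53 over the 8 fits that each left out 1 sample. The share of all tested genes called lower also moved in these fits, from 1.36% with all samples. It was 0.437% without T1-1, 1.54% without T1-3, 0.734% without T1-4 and 2.13% without T1-5. Among the sham samples, it was 0.175% without S1-4, 0.736% without S1-6, 0.715% without S3-1 and 0.415% without S3-4. The same fits were used for the other genes below.

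Rspo1 was lower by a smaller factor. It lies on chromosome 4 from 124986430 to 125009099 (plus strand) and encodes the founding R-spondin. In T1-1, T1-3, T1-4 and T1-5, Rspo1 was at 4.42, 6.64, 4.55 and 5.70 CPM, respectively. In S1-4, S1-6, S3-1 and S3-4, it was at 12.7, 20.3, 14.4 and 36.0 CPM. The IUGR samples lay close together, whereas S3-4 was far above the other sham samples. The IUGR mean of 5.33 ± 1.05 CPM lay below the sham mean of 20.8 ± 10.6 CPM (SD, n = 4 each), with a log2 fold change of -1.96 (SE 0.33, 95% interval -2.70 to -1.22, adjusted p = 0.0230 by edgeR), or 3.90-fold lower. The call was lost without T1-1 (adjusted p = 0.0727), without T1-4 (0.0544) and without S1-4 (0.0506), with log2 fold changes from -2.11 to -1.56 over the 8 fits.

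Rspo3 had the highest level of the ligands and the smallest of their decreases. It lies on chromosome 10 from 29452416 to 29535867 (minus strand), and its product is also known for its role in vessel development. In T1-1, T1-3, T1-4 and T1-5, Rspo3 was at 29.1, 37.7, 18.3 and 48.4 CPM, respectively. In S1-4, S1-6, S3-1 and S3-4, it was at 69.8, 65.3, 92.4 and 110.1 CPM. The groups did not overlap, with T1-5 the nearest IUGR sample to the sham range. The IUGR mean of 33.4 ± 12.8 CPM lay below the sham mean of 84.4 ± 20.9 CPM (SD, n = 4 each), with a log2 fold change of -1.34 (SE 0.28, 95% interval -1.96 to -0.71, adjusted p = 0.0491 by edgeR), or 2.53-fold lower. This call was close to the threshold. It was kept only when T1-5 was left out (adjusted p = 0.0210), and it was lost without T1-1 (0.124), T1-3 (0.0740), T1-4 (0.0598), S1-4 (0.119), S1-6 (0.0560), S3-1 (0.123) or S3-4 (0.146).

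Xist was high in 3 of 4 IUGR samples and 1 of 4 sham samples. With log2 CPM of Xist as a covariate, a setting chosen after seeing the data, edgeR called 0 of the 13707 tested genes, the ligand genes among them. In that fit the log2 fold changes were -2.06 for Rspo1 (adjusted p = 0.0923), -3.61 for Rspo2 (0.0729) and -1.28 for Rspo3 (0.258).

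**Figure D1:**
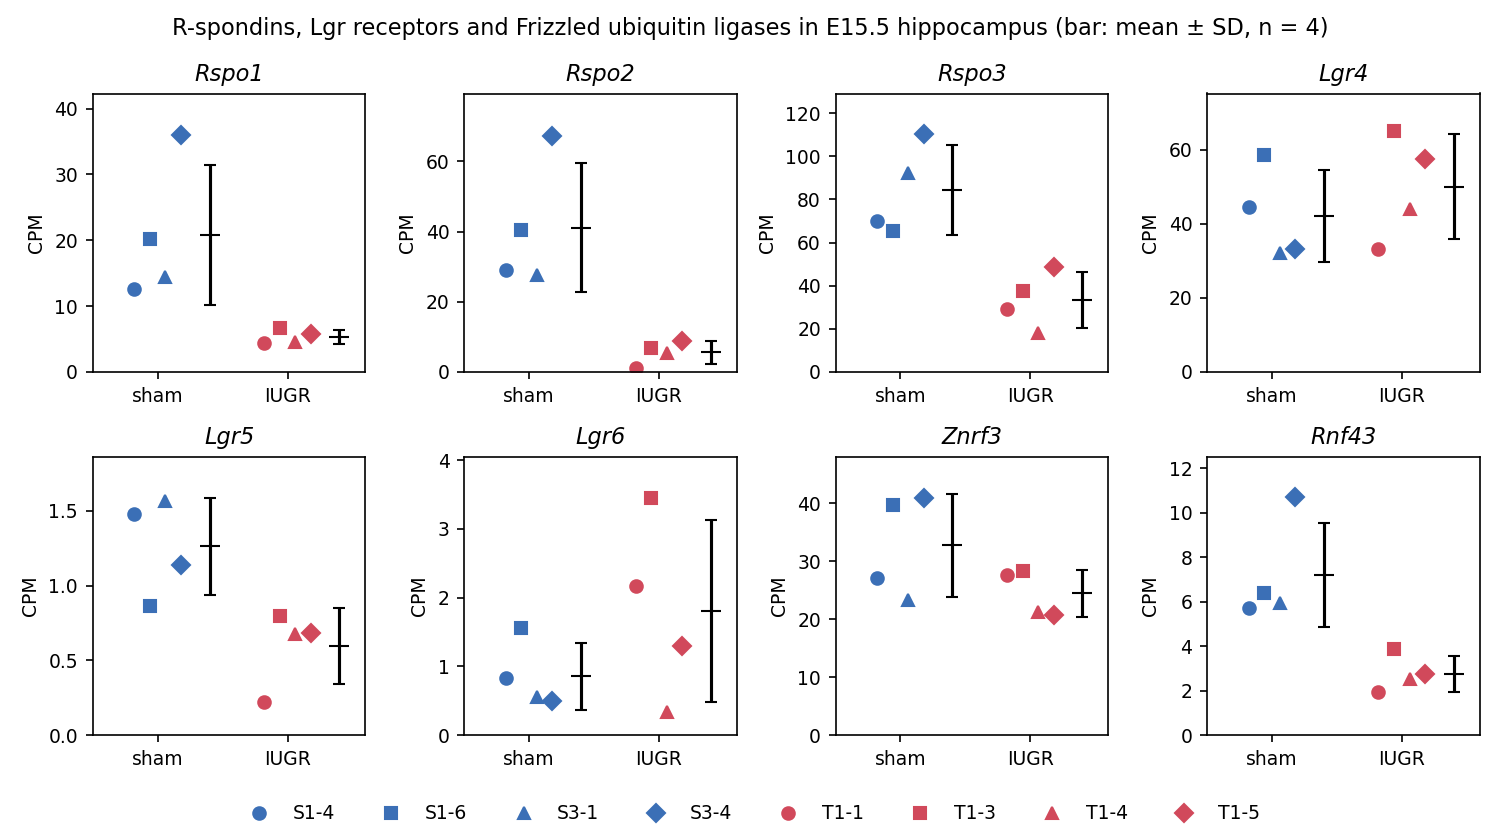
CPM of each gene in each sample, with sham control samples in blue and IUGR samples in red, and with black bars for the mean ± SD (n = 4). The IUGR samples of Rspo2 sit between 1.20 and 8.82 CPM and the sham samples between 27.6 and 67.2 CPM, whereas the groups overlap for Lgr4, Lgr6 and Znrf3.

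The Lgr receptor genes did not pass the test in either direction. Lgr4, the broadly expressed receptor, lies on chromosome 2 from 109917647 to 110014257 (plus strand). In T1-1, T1-3, T1-4 and T1-5, it was at 33.2, 65.1, 44.1 and 57.6 CPM, respectively. In S1-4, S1-6, S3-1 and S3-4, it was at 44.6, 58.6, 32.1 and 33.3 CPM. The groups overlapped across most of their ranges, and the log2 fold change was 0.25 (95% interval -0.30 to 0.80, adjusted p = 0.985 by edgeR). With 1 sample left out it ranged from 0.13 (without T1-3) to 0.45 (without S1-6).

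Lgr5, a marker of Wnt-responsive stem cells in many epithelia, was barely detected. It lies on chromosome 10 from 115450311 to 115587780 (minus strand). The IUGR samples T1-1, T1-3, T1-4 and T1-5 held 3, 13, 8 and 9 counts, and the sham samples S1-4, S1-6, S3-1 and S3-4 held 16, 10, 20 and 16. After scaling to CPM the groups did not overlap, but the margin was narrow, from 0.799 CPM in T1-3 to 0.866 CPM in S1-6. The exact Poisson 95% intervals of these samples overlapped, at 0.425 to 1.37 CPM and 0.415 to 1.59 CPM, and such intervals cover counting error only. The log2 fold change was -1.06 (SE 0.43, 95% interval -2.01 to -0.12), with an adjusted p of 0.353 by edgeR.

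Lgr6, known as a marker of stem cells in skin, lies on chromosome 1 from 134983301 to 135105276 (minus strand). In the same order of samples, it held 29, 56, 4 and 17 counts in IUGR, against 9, 18, 7 and 7 counts in sham. The IUGR samples spanned the whole sham range, from 0.337 to 3.44 CPM. The log2 fold change of 1.10 (95% interval -0.28 to 2.49) had an adjusted p of 0.652 by edgeR, and it ranged from 0.61 (without T1-3) to 1.55 (without S1-6) with 1 sample left out.

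Of the ligase genes, Rnf43 was lower in every IUGR sample and Znrf3 overlapped between the groups. Rnf43 lies on chromosome 11 from 87662722 to 87735539 (plus strand). In T1-1, T1-3, T1-4 and T1-5, it was at 1.95, 3.87, 2.53 and 2.74 CPM, respectively. In S1-4, S1-6, S3-1 and S3-4, it was at 5.73, 6.41, 5.96 and 10.7 CPM. The means were 2.77 ± 0.806 CPM (SD, n = 4) and 7.20 ± 2.35 CPM (SD, n = 4), with a log2 fold change of -1.37 (SE 0.31, 95% interval -2.05 to -0.69). The adjusted p of 0.0571 by edgeR missed the threshold. DESeq2's Wald test called it lower (adjusted p = 0.00428), as it did 2.49% of tested genes, and limma-voom called it lower (adjusted p = 0.0473), as it did 2.22%. With 1 sample left out, edgeR called it in 1 of 8 fits, that without T1-3 (adjusted p = 0.0467). In the others the adjusted p reached 0.181 (without S3-4), and the log2 fold change ranged from -1.55 to -1.12 over the 8 fits.

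Znrf3 lies on chromosome 11 from 5276324 to 5444847 (minus strand). In T1-1, T1-3, T1-4 and T1-5, it was at 27.7, 28.3, 21.2 and 20.8 CPM, respectively. In S1-4, S1-6, S3-1 and S3-4, it was at 27.1, 39.7, 23.3 and 40.9 CPM. Only S1-6 and S3-4 lay above the IUGR range. The log2 fold change was -0.42 (95% interval -0.89 to 0.05, adjusted p = 0.551 by edgeR).

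**Figure D2:**
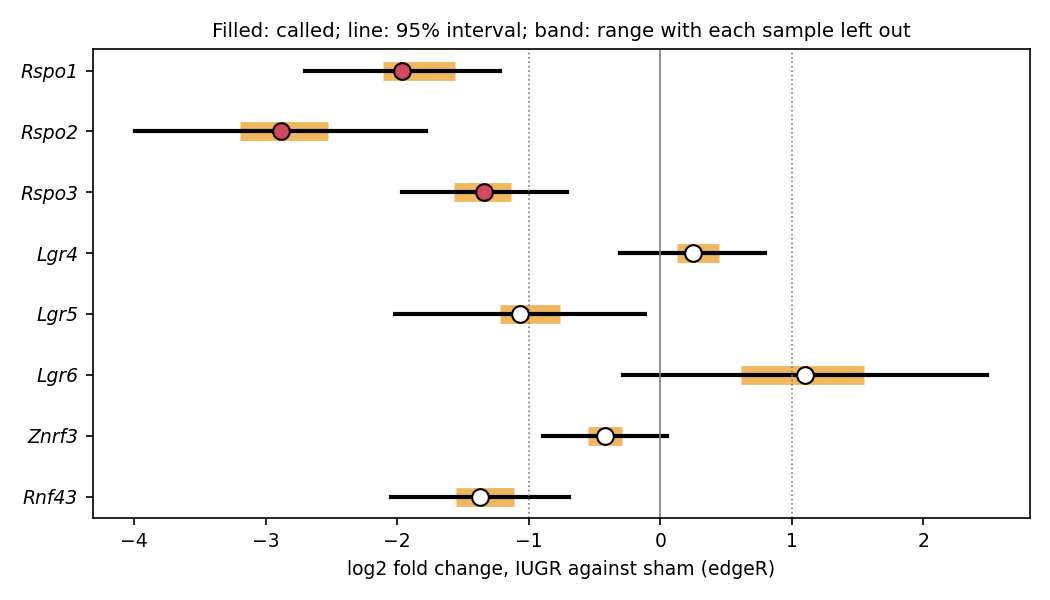
Log2 fold change of IUGR against sham for each gene by edgeR, with its 95% interval as a line and the range over the fits that each left out 1 sample as a band; dotted lines mark a log2 fold change of 1 in either direction. Filled points mark Rspo1, Rspo2 and Rspo3, which were called, and the estimates run from -2.88 for Rspo2 to 1.10 for Lgr6.

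The order of levels between different genes was read only from CPM per kilobase of exon. In sham hippocampi the order was Rspo3 (27.3), Rspo1 (10.7), Rspo2 (8.03), Lgr4 (7.16), Znrf3 (4.15), Rnf43 (1.10), Lgr6 (0.125) and Lgr5 (0.123). Each gene was above the next in 4 of 4 sham samples, except that Rspo2 was above Lgr4 in 1 of 4 and Lgr6 above Lgr5 in 1 of 4. In IUGR hippocampi the order was Rspo3 (10.8), Lgr4 (8.50), Znrf3 (3.10), Rspo1 (2.75), Rspo2 (1.09), Rnf43 (0.423), Lgr6 (0.264) and Lgr5 (0.058). Here only the steps from Lgr4 to Znrf3 and from Rspo1 to Rspo2 held in 4 of 4 samples, and each other step held in 3 of 4. Lgr4 made up most of the receptor level in both groups, at 96.3% in IUGR and 96.6% in sham. Rspo2 made up 7.41% ± 3.98 of the summed R-spondin level in IUGR samples as against 17.1% ± 3.41 in sham samples (SD, n = 4 each).

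Ratios within a sample do not depend on the library size, and 7 pairs were tested by exact permutation (two-sided), whose smallest possible p with 4 samples per group is 0.0286. The ratios are of counts without correction for exon length. They compare the groups, and their sign does not give the order of levels between genes. The log2 ratio of Rspo1 to Rspo2 averaged 0.24 ± 1.10 in IUGR samples as against -1.01 ± 0.13 in sham samples (SD, n = 4 each), without overlap (exact p = 0.0286). The 4 sham samples lay close together, and the IUGR spread came mainly from T1-1 at 1.85. The difference between the group means was 1.24 with all samples and 0.71 without T1-1. The ratio of Rspo3 to Lgr4, its most abundant receptor here, was -0.62 ± 0.51 in IUGR and 1.01 ± 0.74 in sham, also without overlap (exact p = 0.0286). The ratio of Rnf43 to Znrf3 was -3.15 ± 0.44 in IUGR and -2.19 ± 0.32 in sham, again without overlap (exact p = 0.0286). The ratios of Rspo2 to Rspo3, Rspo3 to Znrf3 and Lgr5 to Lgr4 differed by -1.70, -1.001 and -1.38 (IUGR minus sham), with overlap (exact p = 0.0571 each). Without T1-1, the difference for Rspo2 to Rspo3 was -1.12. The ratio of Rspo1 to Rspo3 differed by -0.46 (exact p = 0.2), and by -0.29 without T1-5 and -0.30 without S3-4. After Benjamini-Hochberg adjustment over the 7 pairs the smallest p was 0.0667, so 0 pairs passed.

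**Figure D3:**
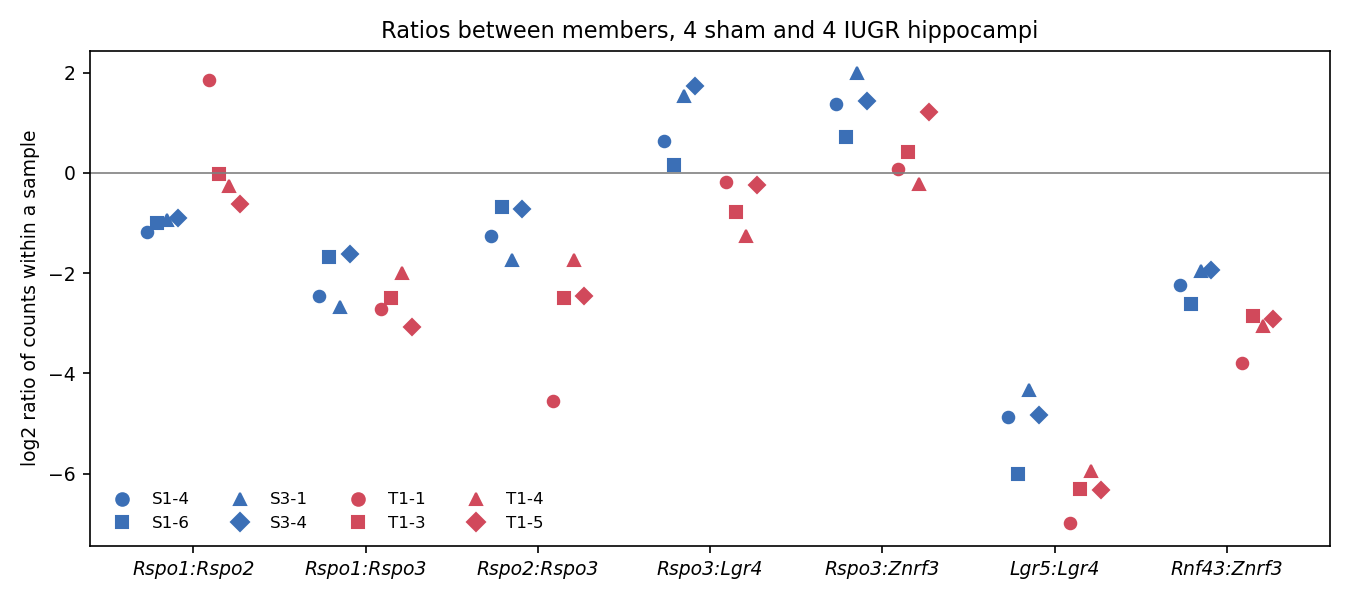
Log2 ratio of counts between 2 genes within each sample, without correction for exon length, with sham control samples in blue and IUGR samples in red. The ratio of Rspo1 to Rspo2 is between -1.19 and -0.90 in the sham samples and between -0.63 and 1.85 in the IUGR samples.

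For each R-spondin, the 5 genes with the nearest centred log2 CPM profile over the 8 samples were listed, and Eya4 was on the lists of both Rspo1 and Rspo3. The distance is the root mean square difference in log2 units, over 11906 genes. The median distance over these genes was 1.03 from Rspo1, 1.75 from Rspo2 and 0.84 from Rspo3. Centring over all 8 samples keeps the difference between the groups, so genes with a like fold change lie near each other for that reason alone. Shared regulation or a shared cell source was not tested. Nearest to Rspo2 were the Wnt ligand gene Wnt3a (0.31), the ciliary radial spoke gene Rsph1 (0.34), the hem transcription factor gene Lmx1a (0.41), the Wnt ligand gene Wnt2b (0.52) and Fam183b (0.58). Nearest to Rspo1 were Rnf43 (0.33), Eya4 (0.34), Tmem132c (0.34), the proprotein convertase gene Pcsk6 (0.37) and the Wnt ligand gene Wnt8b (0.39). Nearest to Rspo3 were Ccdc80 (0.18), Eya4 (0.26), Fank1 (0.27), 1700084C01Rik (0.28) and the glutathione transferase gene Gsta4 (0.28). Among the ligands themselves, the distance was 0.48 between Rspo1 and Rspo3, 0.89 between Rspo1 and Rspo2 and 1.14 between Rspo2 and Rspo3.

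Because Rnf43 had the profile nearest to Rspo1, the 250 bases upstream of a start of each gene are shown, from RefSeq on GRCm38.p6, at chr4:124986180-124986429 for Rspo1 and chr11:87662837-87663086 for Rnf43, both on the plus strand.
Rspo1: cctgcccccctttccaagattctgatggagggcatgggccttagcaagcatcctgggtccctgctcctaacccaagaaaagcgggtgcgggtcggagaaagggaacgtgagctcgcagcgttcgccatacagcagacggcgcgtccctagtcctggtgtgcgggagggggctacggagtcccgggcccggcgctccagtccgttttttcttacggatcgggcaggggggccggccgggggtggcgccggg
Rnf43: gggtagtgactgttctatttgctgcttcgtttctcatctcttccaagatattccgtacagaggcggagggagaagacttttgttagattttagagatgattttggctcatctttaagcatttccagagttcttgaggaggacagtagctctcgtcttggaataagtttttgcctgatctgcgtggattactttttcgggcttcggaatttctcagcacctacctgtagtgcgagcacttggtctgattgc

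RefSeq promoters were matched for 4 of the 8 genes (Rspo1, Lgr4, Lgr6 and Rnf43). The Rnf43 stretch shown lies inside the gene span given above, which starts at 87662722. Another matched promoter of Rnf43, at chr11:87699647-87699896, is not shown. The letters CTTTGAA, and likewise CTTTGAT, then CTTTGTA, and finally CTTTGTT, forms of the site bound by Tcf and Lef factors, were searched on both strands. None of the matched promoters held one, as against 14.8% of 32851 RefSeq promoters that did. With so few genes matched, this cannot show that such sites are rarer in them.

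Other genes of the pathway were read from lists that leave out the 8 genes, against a median log2 fold change of -0.02 over all tested genes. Of 13 Wnt ligand genes tested, 3 were called lower and 0 higher, and the median change was -0.50 on the log2 scale. DESeq2 called 5 of them lower and limma-voom called 4. Those called by edgeR were Wnt3a (-3.03, adjusted p = 0.0114), Wnt8b (-1.61, 0.0450) and Wnt2b (-2.40, 0.0487), all known from the cortical hem and adjoining dorsal midline. Wnt10a was at -2.32 with an adjusted p of 0.0571 by edgeR.

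Of 16 Frizzled receptor and coreceptor genes, 0 were called by edgeR in either direction, with 2 lower and 0 higher at an unadjusted p under 0.05, and the median log2 fold change was -0.13. DESeq2 and limma-voom each called 1 lower. Fzd7, a receptor for canonical Wnt proteins, was nearest to the threshold at -1.05 (adjusted p = 0.0723). Of 10 heparan sulfate proteoglycan genes, 0 were called by edgeR, with 2 lower and 1 higher at an unadjusted p under 0.05, 0 by DESeq2 and 1 lower by limma-voom, and the median was -0.23. The syndecan gene Sdc4 had a log2 fold change of -0.9996 (adjusted p = 0.0571 by edgeR). Of 9 genes of the Dishevelled proteins and the beta-catenin destruction complex, 0 were called by edgeR, DESeq2 or limma-voom, 0 had an unadjusted p under 0.05 in edgeR's test, and the median was 0.01.

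Of 14 genes used as readouts of beta-catenin activity, 8 had a log2 fold change below 0 and 6 above it, with a median of -0.29. Of the 14, edgeR called 1 lower and 0 higher, and 4 were lower and 0 higher at an unadjusted p under 0.05. DESeq2 called 2 of the 14 lower and limma-voom called 1. The gene called by edgeR was Dkk1, which encodes a secreted Wnt inhibitor, at -3.12 (adjusted p = 0.00998 by edgeR). Sp5 (-1.26, adjusted p = 0.142), Apcdd1 (-0.78, 0.198) and Axin2 (-0.69, 0.304) did not pass.

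Markers of neighboring tissue also differed between the groups. Of 15 choroid plexus markers tested, 4 were called lower (Cldn2, Car12, Folr1 and Otx2) and 15 had a log2 fold change below 0, with a median of -3.07. At an unadjusted p under 0.05 the edgeR test placed 15 of them lower, DESeq2 called 7 lower and limma-voom called 11 lower. The summed CPM of the list, the transthyretin gene Ttr included, was 58.1 to 1336 in IUGR and 5677 to 12394 in sham, and Tmem72 was at 0 in at least 1 sample. Of 6 cortical hem markers outside the Wnt and R-spondin families, 1 was called lower (Lmx1a, -3.09, adjusted p = 0.0116 by edgeR) and 6 were below 0, with a median of -1.23. The transcription factor genes Lmx1a, Msx1 and Msx2 were lower in every IUGR sample than in every sham sample, whereas Bmp4, Bmp6 and Bmp7 overlapped between the groups. DESeq2 called 2 of the 6 lower and limma-voom called 1. Their summed CPM was 16.7 to 146.1 in IUGR and 98.1 to 163.9 in sham, and Gdf7 was at 0 in at least 1 sample. The part of these tissues in the R-spondin result was not tested. In bulk samples, fewer cells of a type and less RNA per cell cannot be told apart.

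The IUGR samples differed among themselves in the choroid plexus markers. Their summed level was 84.8 CPM in T1-1 and 58.1 in T1-4, against 1336 in T1-3 and 916 in T1-5, and all 4 were below the sham range. With T1-1 and T1-4 left out together, Rspo2 was called (log2 fold change -2.41, adjusted p = 0.0289 by edgeR), and Rspo1 (-1.75, 0.0876) and Rspo3 (-0.97, 0.0961) were not; the IUGR samples kept in that fit also had choroid plexus levels below every sham sample. Of all genes tested in that fit, 1.02% were called lower and 0.724% higher.

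**Figure D4:**
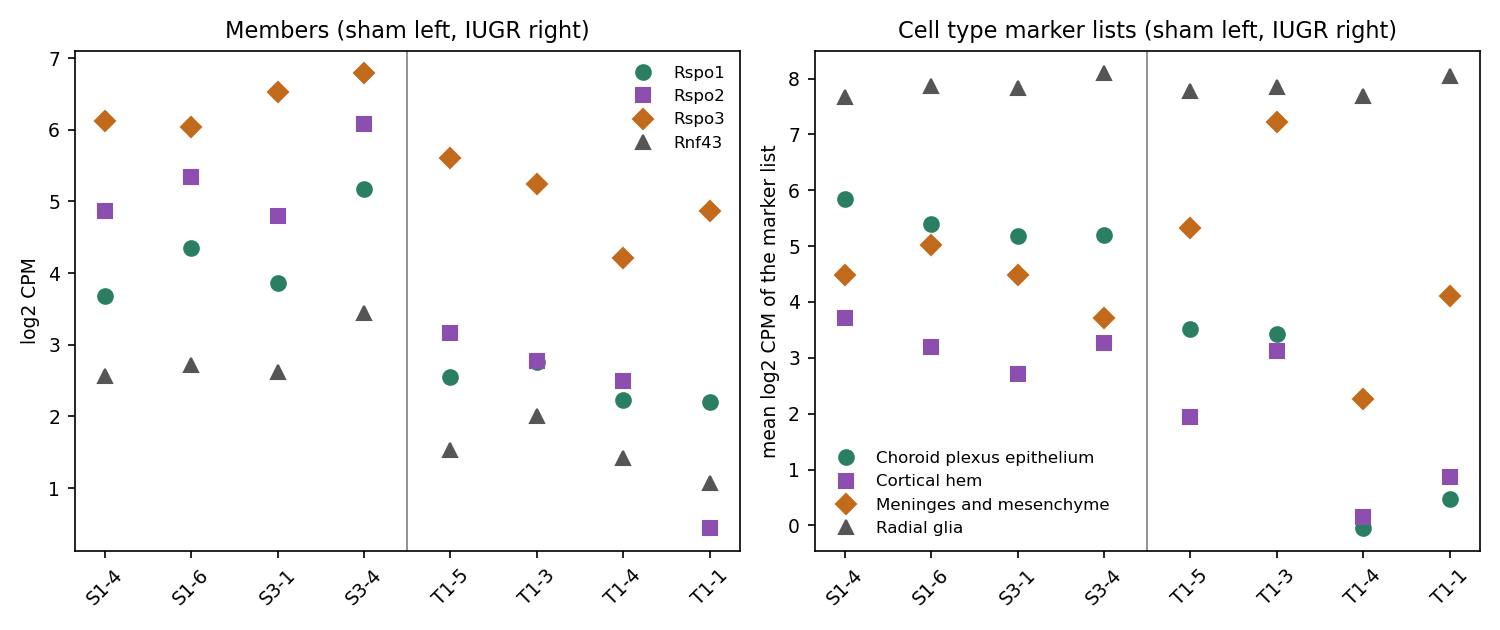
Left, log2 CPM of Rspo1, Rspo2, Rspo3 and Rnf43 in each sample; right, the mean log2 CPM of 4 marker lists in the same samples, with sham control samples left and IUGR samples right of the vertical line. T1-1 and T1-4 have the lowest choroid plexus and cortical hem values, while radial glia markers lie at like levels in all 8 samples.

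Other marker lists held 0 called genes by edgeR. The 10 markers of meninges and mesenchyme had a median of 1.20 on the log2 scale, with 10 above 0 and 0 at an unadjusted p under 0.05. Their summed CPM ran from 90.5 in T1-4 to 2949 in T1-3 in the IUGR group, as against 310.6 to 606.4 in sham. Among the IUGR samples, Lgr6 was lowest in T1-4 (4 counts) and highest in T1-3 (56 counts). Within that group, T1-4 was also lowest and T1-3 highest in the summed CPM of several lists. These were the meningeal, choroid plexus, cortical hem, endothelial and Cajal-Retzius lists. The source of the Lgr6 reads was not tested. The 8 endothelial markers had a median of 0.54, with 3 higher at an unadjusted p under 0.05. The 8 radial glia markers had a median of -0.03, with 0 at an unadjusted p under 0.05. The 10 markers of hippocampal primordium and neurons had a median of -0.31, with 2 lower and 2 higher at an unadjusted p under 0.05, and the synaptic gene Syt1 was called higher by DESeq2 and by limma-voom. The 6 Cajal-Retzius markers had a median of 0.25, with 1 higher at an unadjusted p under 0.05.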

How the data were processed

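The authors deposited raw read counts per gene for 8 samples, without normalization. The submitters' processing notes name Novoalign 2.8 and mm10 (GRCm38); the counting program and its strand setting are not given in the sources used here. Ensembl identifiers were looked up in GENCODE M21, and 273 of 16397 without a match were left out. The 13707 protein-coding genes whose mean count was 10 or more and below 50000 were tested; the study's methods give these limits, and applying them to the mean over the 8 samples was chosen here. In R 4.3.3, counts were compared with edgeR 4.0.16 (TMM, quasi-likelihood test, Benjamini-Hochberg adjustment over all tested genes). CPM was scaled by TMM, a prior count of 2 was used for log2 CPM, and 0.5 was added to counts before ratios were taken. DESeq2 1.42.0 and limma 3.58.1 (voom) were alternatives, with other scalings and filters and each sample left out in turn. A check for 1 library deposited under 2 names found none, since counts of within-group pairs differed by more than sampling noise (chi-square per degree of freedom of 21.0 to 60.7). Coding sequences were aligned with MAFFT 7.526. At 4 samples per group and 11212632 to 16672463 counts, genes with few counts, such as Lgr5 and Lgr6, have wide intervals.

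The members and lists were chosen with earlier results of these data known. Named genes were the members, up to 4 tested genes of each list with the smallest adjusted p, and the 5 genes (mean count 50 or more) nearest in profile to each called member; Bmp6, Bmp7, Emx2, Zbtb20, Ttr, Tmem72, Gdf7 and Xist were named after their values were seen.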

Additional observations from a re-analysis of the deposited data

Results flagged for a closer look

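Rnf43 in the sham sample S3-4 was at 10.69 CPM, far from the other 3 sham samples, which lay between 5.73 and 6.41 CPM. The gap to the nearest sample was 0.864 of the group's range, above Dixon's 95% critical value for 4 samples. It was 1 of 16 groups of samples examined, and chance flags about 1 in 20. S3-4 was also the highest sham sample for Rspo1, Rspo2, Rspo3 and Znrf3. The cause was not tested.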

How the results depend on the processing

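The directions of Rspo1, Rspo2, Rspo3, Lgr5, Lgr6, Znrf3 and Rnf43 were the same under every alternative in which each was tested, and the calls were not. Against 3 genes called lower, the number was 0 to 3 with each sample left out in turn: 0 without T1-4 or S1-4, and 1 without T1-1 or S3-4. It was 1 with T1-1 and T1-4 left out together, and 0 with only the sham samples of prefix S1 or of prefix S3. Chosen after seeing the data, 2 further settings also gave 0: Xist as a covariate, and S3-4 and T1-1 left out together, picked as the samples with the highest and lowest Rspo2. In the settings with a number of 0, edgeR placed 4 or 5 of the 8 genes lower at an unadjusted p under 0.05 (of 7 with S1 alone, where Lgr5 was not tested), as against 4.40% to 5.56% of all tested genes; 1 was higher without T1-4 (Lgr6) and 1 with S3 alone (Lgr4). Rspo3 was lost with upper-quartile scaling (adjusted p = 0.0619), with the count minimum raised to 50 (0.0893) and with all biotypes (0.0528). Lgr4 turned from 0.25 to -0.024 with the S1 samples alone and to -0.14 with Xist as a covariate. Over all tested genes, 200 were called by edgeR, 425 by DESeq2, 328 by limma-voom, 73 with the minimum of 50, 24 to 302 with 1 sample left out, 241 with T1-1 and T1-4 left out (141 lower and 100 higher, against 186 and 14 with all samples), 0 with S1 alone, 2 with S3 alone, 0 with Xist as a covariate and 0 with S3-4 and T1-1 left out.

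With 1 sample left out, the difference in log2 ratio ranged from 0.71 to 1.53 for Rspo1 to Rspo2, from -0.65 to -0.29 for Rspo1 to Rspo3, from -2.06 to -1.12 for Rspo2 to Rspo3, from -1.28 to -0.80 for Rspo3 to Znrf3, from -1.92 to -1.40 for Rspo3 to Lgr4, from -1.71 to -1.15 for Lgr5 to Lgr4 and from -1.11 to -0.75 for Rnf43 to Znrf3, and unadjusted p-values crossed 0.05 in some. The cause of these changes was not tested. No paired analysis was possible because nothing in the labels ties samples with a like number in their names to a shared dam, litter or batch.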
